A study of Mus musculus with 11 samples.

Results

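RNA without polyadenylated transcripts was sequenced from mouse retina at postnatal day 21, and 548 of the 36097 non-coding features listed in the deposited table were nearly silent without Nrl. A feature is a stretch of the mm10 genome, on 1 strand, with reads but no coding annotation of its own, and all members carry an assembled-transcript name (MSTRG). A feature was a member if its mean over the wild-type libraries was at least 20 normalised counts and its mean over the knockout libraries was at most 10% of that, so members were chosen by the group means themselves. The groups were 5 libraries labelled wild-type and 6 labelled Nrl knock-out, all from retina at the same age. The labels give no strain, no design of the knockout allele and no animal for any library, so the spread between libraries may in part be technical. The low knockout level of each member is therefore the choice itself and is given as a description; where a fit across all features calls members lower, that count follows from the choice.

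Nrl is a basic leucine zipper transcription factor of the Maf family. It is needed for the fate of rods and, together with the homeodomain factor Crx and the nuclear receptor Nr2e3, activates rod genes. The retina of the knockout mouse is known for having no rods and an excess of cells that resemble short-wavelength cones. RNA without a poly(A) tail includes transcripts made at enhancers, short divergent transcripts at promoters, stretches read on past the ends of genes, and some long non-coding RNAs. In bulk retina, fewer cells of a type and less RNA per cell cannot be told apart.

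Promoter sequence was at hand for few members, since most begin far from an annotated gene start. Of RefSeq promoter windows (GRCm38.p6, 250 bases before to 50 bases after a gene start), 9 lay within 500 bp of the 5′ end of a member, serving 10 members. They were searched on both strands for TAATCC, the core bound by Crx and for TGCTGA, the core shared by Maf-type sites. The 3 windows with a TAATCC are shown because they lie beside members and hold that core; capitals mark the matches, with GGATTA and TCAGCA being TAATCC and TGCTGA read on the other strand.
Gm2233: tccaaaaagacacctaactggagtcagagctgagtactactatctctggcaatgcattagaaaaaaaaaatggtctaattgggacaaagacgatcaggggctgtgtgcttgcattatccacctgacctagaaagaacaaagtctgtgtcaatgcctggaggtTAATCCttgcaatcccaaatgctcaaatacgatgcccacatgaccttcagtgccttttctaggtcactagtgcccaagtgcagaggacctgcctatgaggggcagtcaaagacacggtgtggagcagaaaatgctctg
Epb41l2: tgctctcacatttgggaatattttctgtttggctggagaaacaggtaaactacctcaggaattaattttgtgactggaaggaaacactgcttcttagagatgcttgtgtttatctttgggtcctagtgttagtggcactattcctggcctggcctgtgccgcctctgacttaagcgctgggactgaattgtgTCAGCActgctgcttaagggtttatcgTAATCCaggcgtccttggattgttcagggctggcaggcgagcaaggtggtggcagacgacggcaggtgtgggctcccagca
Snx18: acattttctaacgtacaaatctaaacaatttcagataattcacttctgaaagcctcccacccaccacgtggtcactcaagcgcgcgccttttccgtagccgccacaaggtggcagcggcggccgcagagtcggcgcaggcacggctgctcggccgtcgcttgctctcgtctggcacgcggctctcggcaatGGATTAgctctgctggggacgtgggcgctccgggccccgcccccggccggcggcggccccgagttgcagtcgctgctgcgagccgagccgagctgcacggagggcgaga
The Gm2233 window (chr13:43948626-43948925, plus strand) serves 2 members that start on opposite strands 47 bp apart, MSTRG.24050 and MSTRG.24049, at 948 ± 224 and 98.2 ± 33.4 normalised counts (SD, n = 5 wild-type libraries) against 56.0 ± 15.5 and 8.04 ± 3.85 (SD, n = 6 knockout libraries). At Epb41l2, a gene for a membrane skeleton protein (chr10:25408118-25408417, plus strand), MSTRG.8101 lies on the other strand and had 164 ± 64.1 in wild-type and 11.3 ± 2.31 in knockout. At Snx18, a gene for a sorting nexin of endocytosis (chr13:113618515-113618814, minus strand), MSTRG.26430 had 33.3 ± 8.40 and 0.587 ± 0.462. Over all 32817 such windows, 7.06% hold TAATCC and 19.5% hold TGCTGA. With 9 windows near members, 3 with TAATCC and 1 with TGCTGA, the shares are a description and a match is not evidence of binding.

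Total reads over the listed features ranged from 3238184 to 4150460 in the wild-type group and from 3374221 to 4876429 in the knockout group. The share of members in them was 4.34% to 5.14% for wild-type libraries and 0.142% to 0.231% for knockout ones. The member opposite Nrl itself was MSTRG.28375 (chr14:55521461-55522460, plus strand). It had 48.0, 55.5, 39.0, 34.8 and 33.3 normalised counts in wild-type replicates 1 to 5 and 0 to 0.758 with a median of 0 in knockout. The rule took it by its group means, so it is no check of the labels, and the mRNA of Nrl was not analysed here. Across all listed features, 134 were at 0 in every wild-type library and 0 were at 0 in every knockout library, so the table holds no feature wholly without knockout reads and, with that, no such member.

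The members spanned 3 orders of magnitude in wild-type and lay near the floor of counting in knockout. Of the 548, 204 had a wild-type mean from 20 to under 50 normalised counts, 112 from 50 to under 100, 191 from 100 to under 1000, and 41 at least 1000. The median member stood at 72.6 in wild-type and at 3.54% of its wild-type mean in knockout, with quartiles of 1.14% and 6.51%. Wild-type exceeded knockout at least 20-fold in 336 members, at least 50-fold in 193 and at least 100-fold in 123. In 193 members every knockout library held 3 reads or fewer, so their ratios rest on a few reads. In 273 members at least 1 knockout library was at 0, and in 48 members 5 of the 6 were.

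All 548 members passed the filter on low values, a mean over the 11 libraries of 5 or more, and limma called all of them lower at an adjusted p under 0.05. Among the 21395 features tested, 12.6% were called lower and 15.6% higher, and the share called lower among those with a wild-type mean of at least 20 was 24.7%. The highest knockout library lay below the lowest wild-type library in every member, which held for 9.13% of the features tested. Both counts follow from the rule and nothing is read from them. Just inside the rule on level were MSTRG.26405 at 20.2 ± 3.70 and MSTRG.47066 at 20.3 ± 7.38 in wild-type, and just outside it MSTRG.29855 at 19.9 ± 8.53 and MSTRG.23469 at 19.9 ± 9.12. Just inside the rule on the ratio were MSTRG.26972 at 9.93% and MSTRG.67656 at 9.92% of wild-type, and just outside it MSTRG.2496 at 10.1% and MSTRG.2516 at 10.2%. Both features just outside the ratio, MSTRG.2496 and MSTRG.2516, lie on chromosome 1, on the 5′ side of the largest run of members, the one opposite Vwc2l. Those just inside, MSTRG.26972 and MSTRG.67656, lie elsewhere, on chromosomes 14 and 5.

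**Figure D1:**
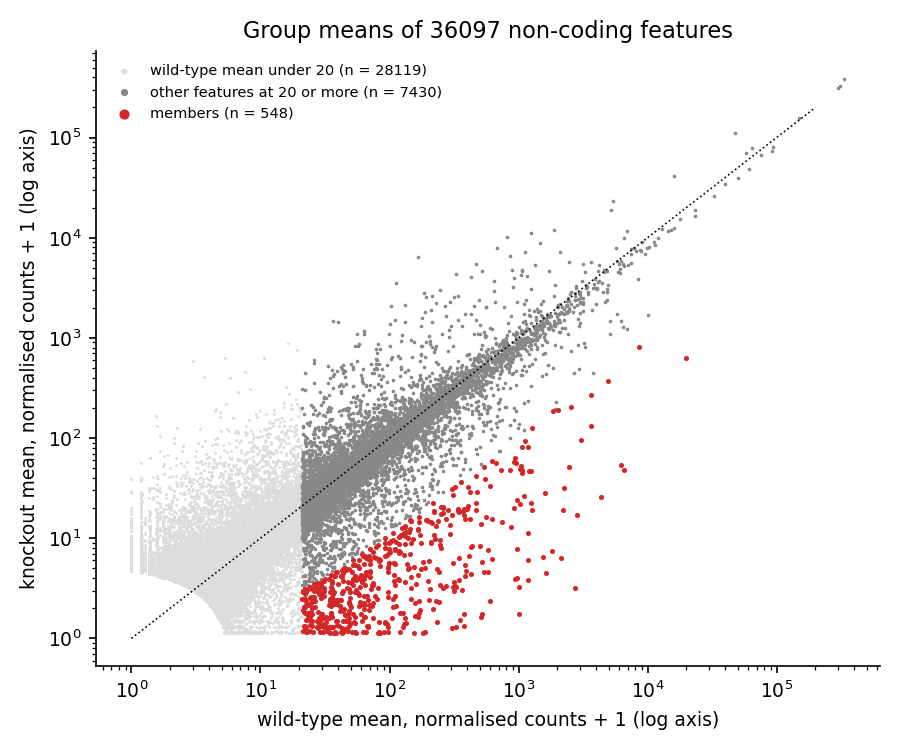
Each point is 1 of 36097 features, with the wild-type mean (n = 5) on the x axis and the knockout mean (n = 6) on the y axis, both as normalised counts + 1 on log axes; the dotted line marks equal means. The 548 members (red) are the features the rule took from the lower right, and the 7430 other features at 20 or more (dark grey) lie mostly along the line.

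Much of the wild-type signal sat in a few long features. The 15 most abundant members held 42.0% of the summed wild-type mean of all members, were 7614 to 38665 bp long, and were placed by the GENCODE M21 annotation as 5 antisense to a coding gene, 5 in an annotated non-coding gene, 4 intergenic and 1 antisense to a non-coding gene. The most abundant, MSTRG.91136, alone held 11.1%. It lies in the predicted non-coding gene Gm47160 (chr9:47456357-47474927, minus strand), and the nearest coding start is that of Cadm1, an adhesion molecule of the immunoglobulin superfamily. In wild-type replicates 1 to 5 it had 24102, 17706, 19279.6, 17308 and 21447 normalised counts. In knockout it had 450.5 to 810.0 with a median of 627, 3.13% of wild-type by the means. This member was thus far lower in knockout than in wild-type and still among the 3 members with most signal in knockout.

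The other 2 of those 3 were MSTRG.46182 and MSTRG.26255. MSTRG.46182 lies opposite Btrc, which encodes a substrate receptor of a ubiquitin ligase (chr19:45417736-45441803, minus strand), and had 9840.2, 8277, 9241, 8031 and 7554 in wild-type and 668 to 1026 with a median of 804 in knockout. MSTRG.26255 lies in B230220B15Rik and opposite Ndufaf2, an assembly factor of respiratory complex I (chr13:107996313-108007906, plus strand), and had 6373, 4499, 4826, 4142 and 4687 in wild-type against 259 to 443 with a median of 368 in knockout. In both, wild-type 1 was the highest library and the groups lay far apart, at 9.40% and 7.52% of wild-type.

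Several others left hardly any reads in knockout. MSTRG.84881, intergenic, lies 85206 bp past the 3′ end of Grk1, the gene of a kinase of photoreceptors, on the same strand (chr8:13507158-13524877, plus strand). It had 7217, 5729, 7012, 6141 and 6833 normalised counts in wild-type and 34.1 to 55.6 with a median of 48.4 in knockout. MSTRG.91064, opposite Cep164, a gene of the centriole that carries the cilium (chr9:45805264-45822682, plus strand), had 6513, 4079, 4320.4, 3505 and 3322 against 18.6 to 31.5 with a median of 26.5. Wild-type 1 stood above the other wild-type libraries in the second of these and close to them in the first. MSTRG.45803, intergenic near Ide, the gene of insulin-degrading enzyme (chr19:37235124-37252862, plus strand), had 2703, 2812, 2832, 2714 and 3078 against 9.60 to 20.8 with a median of 16.8, with the closest agreement between wild-type libraries of the 15. MSTRG.20290, in the predicted gene Gm47647 (chr12:58922824-58952995, minus strand), had 2958, 1993, 2266, 1844 and 1973 against 11.1 to 34.3 with a median of 15.9. MSTRG.76098 lies opposite Ift122, a gene of transport within cilia (chr6:115889336-115902628, minus strand), and had 2833, 2246, 2180.1, 2186 and 1814 against 22.8 to 44.4 with a median of 28.8. All 3 were at or under 1.37% of wild-type in knockout.

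The rest of the 15 ranged from 0.0804% to 7.93% of wild-type. MSTRG.46971, in the gap upstream of Optn, the gene of an autophagy receptor, was lowest in knockout, with 0 to 3.84 with a median of 2.53. MSTRG.17940, opposite Sec14l1, had 6219 ± 903 and 53.1 ± 7.85, which is -6.85 as a difference of log2(normalised count + 1). MSTRG.86254 and MSTRG.86255 follow each other opposite Galntl6, and in both knockout 1 was the highest knockout library, at 474 and 375 where the next held 257 and 199. Intergenic MSTRG.54676, whose nearest coding start is that of the peroxisome gene Pex2, was the longest of the 15 and kept 3.62%. MSTRG.51435, opposite the kinetochore gene Knstrn, kept 3.12%, and MSTRG.44817, near Asrgl1, kept 2.03%.

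**Figure D2:**
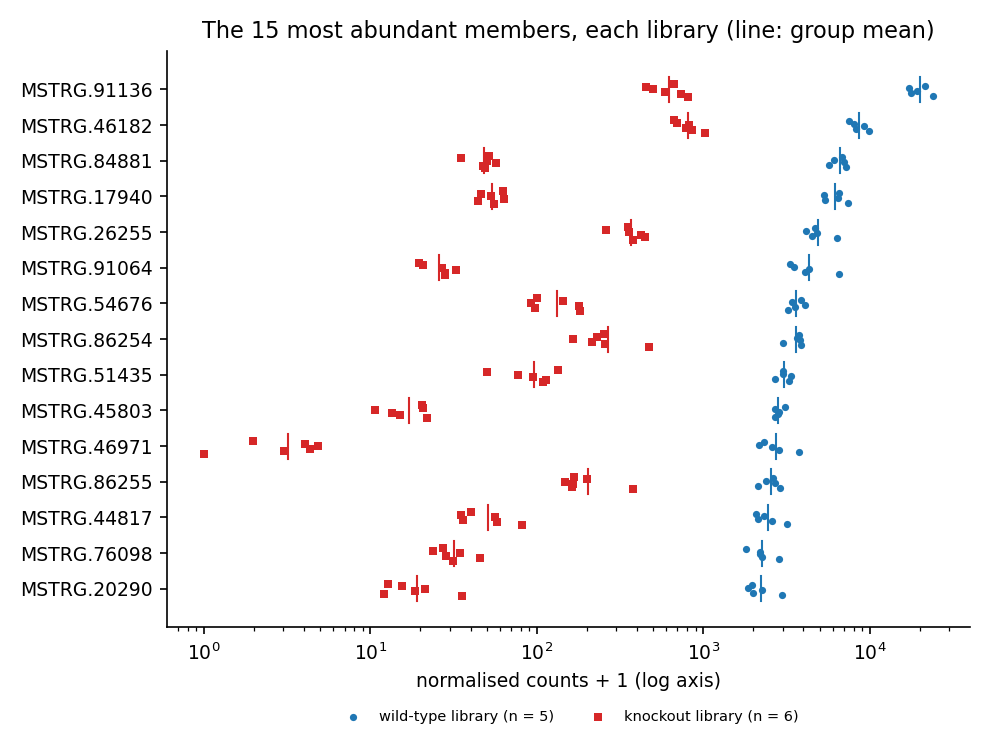
For the 15 members of highest wild-type mean, each point is 1 library (circles wild-type, n = 5; squares knockout, n = 6) on a log axis of normalised counts + 1, and each short line is a group mean. Groups do not overlap in any of them. The knockout means run from 2.198 for MSTRG.46971 to 808 for MSTRG.46182. The 15 were taken by their wild-type level, which narrows its range, so the 2 ranges are not compared.

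The members had a lower median length than other features above the same wild-type threshold, but included long ones. No test over features was run here or in what follows, since neighbouring features may share a transcript. Their median length was 1000.5 bp, with quartiles of 656 and 2636 bp and a range of 103 to 118866 bp. The median was 1368.5 bp over the other 7430 features with a wild-type mean of at least 20, and 235 bp over all 36097 listed. By length, members made up 6.23% of the features at 20 or more that were under 500 bp, 10.8% of those from 500 to under 1000 bp, 5.21% of those from 1000 to under 5000 bp and 5.80% of those of 5000 bp or more. The class from 500 to under 1000 bp was also the largest, with 225 members. The 77 members of 5000 bp or more held 64.0% of the summed wild-type mean. Per kb of length the median member of 5000 bp or more had 68.0 normalised counts in wild-type and the median member of 500 to under 1000 bp had 57.1. Over all features at 20 or more, members included, these medians were 43.6 and 39.2. Under 500 bp the median was 74.5 in members and 129.7 in all. The minimum of 20 normalised counts asks for a higher level per kb in short features, so the length classes are not compared.

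Since the rule asks for 20 normalised counts whatever the length, a short feature becomes a member only with a high level per kb. The 3 longest were MSTRG.7906 (118866 bp, in Gm7213 and Gm33056 beside the transcription factor gene Olig3), MSTRG.12323 (114277 bp, near the adaptor gene Grb10) and MSTRG.96844 (89864 bp, opposite the dystrophin gene Dmd). They had 465 ± 113, 153 ± 34.8 and 377 ± 120.3 in wild-type (SD over 5 libraries) and 18.04 ± 5.08, 4.21 ± 1.65 and 16.0 ± 6.78 in knockout (SD over 6 libraries). The 3 shortest were MSTRG.97976 (103 bp, intergenic), MSTRG.68455 (119 bp, opposite Cnga1) and MSTRG.87811 (122 bp, opposite Cngb1). The Cnga1 and Cngb1 features lay with 93.3% and 99.2% of their length over exons, and MSTRG.97976 had 193, 113, 129.9, 84.2 and 88.8 in wild-type against 3.03 to 16.3 with a median of 9.20 in knockout.

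Both strands were used about equally, with 266 members on the plus and 282 on the minus strand, and a larger share of members than of other features faced a coding gene. Of the 548, 243 or 44.3% were antisense to a coding gene, against 27.9% of the other features at 20 or more. Another 214 or 39.1% were intergenic against 48.6%, 59 or 10.8% lay in an annotated non-coding gene against 14.7%, and 29 or 5.29% were antisense to a non-coding gene against 4.47%. On the strand of a coding gene lay 3 members. Seen the other way, members were 10.5% of the 2317 features at 20 or more antisense to a coding gene and 5.59% of the 3827 intergenic ones. Antisense and intergenic members were alike in median level (67.4 and 62.1 normalised counts) and median length (934 and 936 bp).

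The reads were stranded per the labels' protocols, but whether the counting used strand is not stated by the sources at hand. Features on opposite strands of 1 stretch could have unlike counts. MSTRG.74899 (857 bp) lies within MSTRG.74898 (3622 bp) on the other strand, and they had wild-type means of 60.4 and 2117 normalised counts. How far reads of a faced gene enter an antisense feature was not tested. Of the 243 antisense members, 159 touched no exon of the gene and 15 had at least 50% of their length over coding-gene exons. The median knockout level was 4.56% of wild-type in the 159 and 1.58% in the 15.

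Members also began in pairs, back to back. A start site that is read both ways is common at promoters and enhancers. For 133 members another feature on the opposite strand had its 5′ end within 1000 bp. Of their 137 such partners, 118 had a wild-type mean of at least 20, and 100 of these were themselves members. Among the partners of other features at 20 or more, 18 of 528 were members. The median partner of a member was at 3.72% of wild-type in knockout, and the median partner of another feature at 88.0%.

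There were 50 pairs with both sides a member, made of 97 members. Their starts were a median of 198 bp apart, 37 pairs were transcribed away from each other and in 13 the starts overlapped. Both sides were intergenic in 32 pairs. The distance to a coding start was taken from the middle of the plus-strand member, not from the paired starts. By that measure 0 pairs lay within 1000 bp of a coding start, and the median distance was 28170 bp. How far the starts themselves lay from a coding start was not counted. The sides were unequal, the higher at a median of 3.75 times the lower in wild-type. At the most abundant pair, MSTRG.84881 faced MSTRG.84880, whose starts were 202 bp apart. The former had 6586 ± 627 in wild-type and 47.3 ± 7.19 in knockout, the latter 160.2 ± 42.1 and 2.52 ± 1.41. MSTRG.17940 faced MSTRG.17942 at 190 bp, and the partner had 62.9 ± 7.29 and 1.62 ± 1.87. Both sides of MSTRG.26255 and MSTRG.26254 were abundant, the latter with 1061 ± 302 in wild-type and 43.7 ± 17.2 in knockout. At MSTRG.46971, upstream of Optn, the partner MSTRG.46974 started 57 bp away and had 241, 224, 159, 185 and 120.0 in wild-type and 0 to 0.960 with a median of 0 in knockout. In these 4 pairs the weaker side kept 1.57%, 2.57%, 4.12% and 0.0861% of its wild-type mean and the stronger side 0.718%, 0.854%, 7.52% and 0.0804%, and in none did the groups overlap.

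Along the chromosomes members gathered in runs. Joined where they lay on 1 strand with gaps of at most 10000 bp, the 548 formed 410 groups, and 77 groups of 2 or more held 215 members (39.2%). The other features at 20 or more, which are far denser, had 48.7% in such groups. A comparison less tied to density looks at the nearest same-strand feature at 20 or more within 10000 bp. Of the 262 members with one, 197 or 75.2% had a member there. Of the 3668 other features with one, 58 or 1.58% did. The 65 nearest neighbours of members that were not members stood at a median of 17.9% of wild-type in knockout and 64 had a lower mean there. For the other features this median was 89.2%.

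The longest run held 17 members opposite Vwc2l, a gene for a secreted protein with a von Willebrand factor C domain (chr1:70736347-70815790, minus strand). Summed over them, wild-type replicates 1 to 5 had 1525, 1874, 2336, 2511 and 2766 normalised counts. Knockout had 110.1 to 226 with a median of 184, which is 8.06% by the means. Here wild-type 1 was the lowest wild-type library, unlike in most members, and the groups did not overlap. The 17 ranged from 32.1 to 58.0 normalised counts per kb in wild-type, with the highest value at the 5′ end of the run, and kept 4.96% to 9.85% in knockout. MSTRG.2494, the 5′-most, had 1115 ± 274 and 92.5 ± 26.3, and MSTRG.2488, the next in level, 222 ± 49.4 and 17.1 ± 3.48.

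Another 17 listed features on that strand lay within or beside the run without being members. They had 22.2 to 68.7 normalised counts per kb in wild-type and 2.48% to 16.1% of that in knockout, and all 17 were lower there. Of these, 3 reached a wild-type mean of 20, and their median length was 263 bp against 1267 bp for the members. The long MSTRG.2496 (27865 bp), at the 5′ side, had 1307, 1705, 2046, 2245 and 2264 in wild-type and 124 to 242 with a median of 201 in knockout and missed the ratio by little. In it, too, wild-type 1 was the lowest wild-type library and the groups did not overlap.

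**Figure D3:**
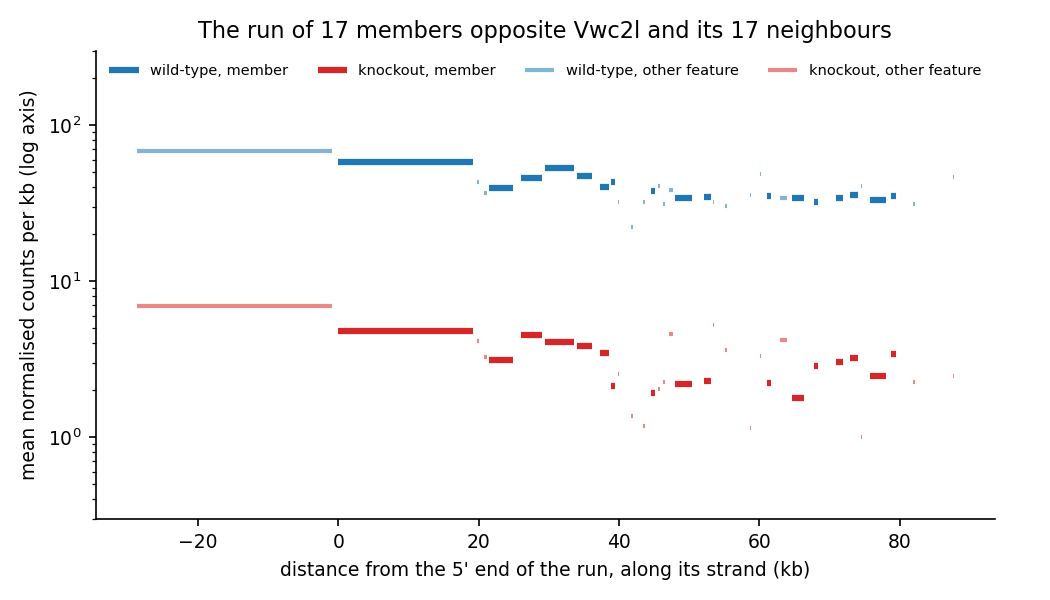
Each bar is 1 feature of the run opposite Vwc2l, placed by distance in kb from the run's 5′ end along its strand, with the group mean per kb on a log axis (blue wild-type, n = 5; red knockout, n = 6; thick bars members, thin bars the 17 other features). Wild-type stays between 22.2 and 68.7 per kb and knockout between 1.01 and 6.95 over the whole stretch, members and others alike.

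Next in size was a run of 10 members at Gm47160 near Cadm1 (chr9:47432619-47474927, minus strand). Its sum was 24420.1, 18077, 19623, 17702 and 21902 in wild-type and 456 to 816 in knockout, nearly all of it MSTRG.91136. MSTRG.91130, the next in level there, had 72.8 ± 7.29 against 1.27 ± 1.05. A run of 6 opposite Cmah, the gene of the enzyme that makes N-glycolylneuraminic acid, covered 93.8% of its stretch (chr13:24343471-24383982, minus strand) and summed to 2526, 2493, 2705, 3013 and 3518 in wild-type and 3.79 to 16.2 in knockout. That is 0.296% by the means, the lowest of the 6 largest runs. In it, MSTRG.23521 had 1631 ± 413 against 3.51 ± 1.76, and MSTRG.23522 had 969.8 ± 118 against 3.04 ± 1.81.

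Further runs of 6 lay opposite Zan, which encodes the sperm protein zonadhesin (chr5:137400570-137444202, plus strand), and opposite Senp7, which encodes a SUMO protease (chr16:56131839-56145736, minus strand). The Zan run summed to 1487 ± 207 in wild-type (SD over 5 libraries) and 72.3 ± 20.4 in knockout (SD over 6 libraries). The Senp7 run summed to 392 ± 47.3 and 4.80 ± 1.66. Leading members were MSTRG.71255 and MSTRG.71262 at Zan, kept at 4.46% and 6.52%, and MSTRG.36044 and MSTRG.36037 at Senp7, at 0.979% and 0.915%.

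Members were 6.87% of all features at 20 or more, and by chromosome from 3.70% on chromosome 15 to 10.96% on chromosome 1, followed by 10.3% on chromosome 13 and 9.57% on chromosome 19. The run opposite Vwc2l accounts for 17 of the 49 members on chromosome 1. Within 10 Mb of Nrl 11 of 102 features at 20 or more were members. The most abundant there were MSTRG.28468 (chr14:57234013-57236642, minus strand, intergenic) at 917 ± 226 and 19.2 ± 6.90, MSTRG.28644 opposite Ebpl at 314 ± 101 and 1.98 ± 1.57, and MSTRG.27942 opposite Peli2 at 131 ± 33.4 and 12.2 ± 3.52.

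The table assigns each feature to a chromosomal domain (TAD, or interTAD between them) and lists the mRNAs of that domain that were lower or higher in knockout. The labels and headers do not say how domains and lists were made or from which libraries. Members lay in 281 of the 2017 domains that hold a feature at 20 or more, 148 of them with 1 member and 13 with 5 or more, and in 23 domains every such feature, 2 or more of them, was a member. In TAD_65 members were 7 of 8, and in TAD_66 13 of 23, both at Vwc2l. In interTAD_792 at Cmah they were 6 of 6. Stretches between TADs held 40 members, 7.30%, against 8.36% of the other features at 20 or more.

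A lower mRNA was listed in most of the members' domains. Only lower mRNAs were listed for 230 members or 42.0%, against 14.4% of the other features at 20 or more. Both kinds were listed for 114 or 20.8% against 14.3%, only higher mRNAs for 65 or 11.9% against 23.2%, and no changed mRNA for 139 or 25.4% against 48.1%. A lower mRNA was thus listed for 62.8% of members and 28.7% of the other features. Over all 36097 listed features it was 27.4%. Counted by domain, so that a run counts 1 time, 179 of the 281 domains with a member listed a lower mRNA, 63.7%, against 26.2% of the 2017. The 2017 include the 281, and the number of features or mRNAs per domain was not taken into account. In the 365 features with the opposite pattern (knockout mean at least 20, wild-type at most 10% of it), 60.8% were in domains with only higher mRNAs and 10.4% in domains with only lower ones.

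**Figure D4:**
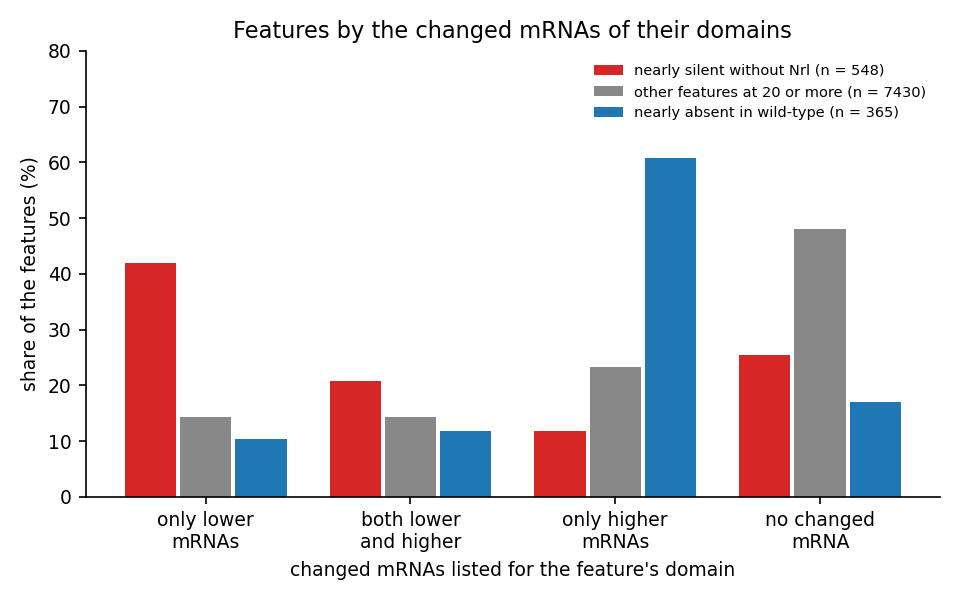
Bars give the share of features, in percent, whose domain lists only lower mRNAs, both kinds, only higher mRNAs or no changed mRNA. Members (red, n = 548) stand highest at only lower mRNAs with 42.0%, the 7430 other features at 20 or more (grey) at no changed mRNA with 48.1%, and the 365 features nearly absent in wild-type (blue) at only higher mRNAs with 60.8%.

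Within those domains members lay close to the lower mRNAs. Of 2311 mRNA symbols listed, 2264 could be placed by the annotation. For the 343 members with a placed lower mRNA in their domain, the median gap to the nearest was 8044 bp, against 134092 bp for 2072 other features at 20 or more. Members were 37.3% of the 359 features at 20 or more that overlapped such a gene, 20.2% of the 218 at 1 to 10000 bp, 19.1% of the 639 at over 10000 to 100000 bp and 3.59% of the 1199 farther away. Near listed higher mRNAs there were few members. Members were 2 of the 211 features overlapping one, 1 of 193 at 1 to 10000 bp, 51 of 854 at over 10000 to 100000 bp and 121 of 1693 beyond.

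**Figure D5:**
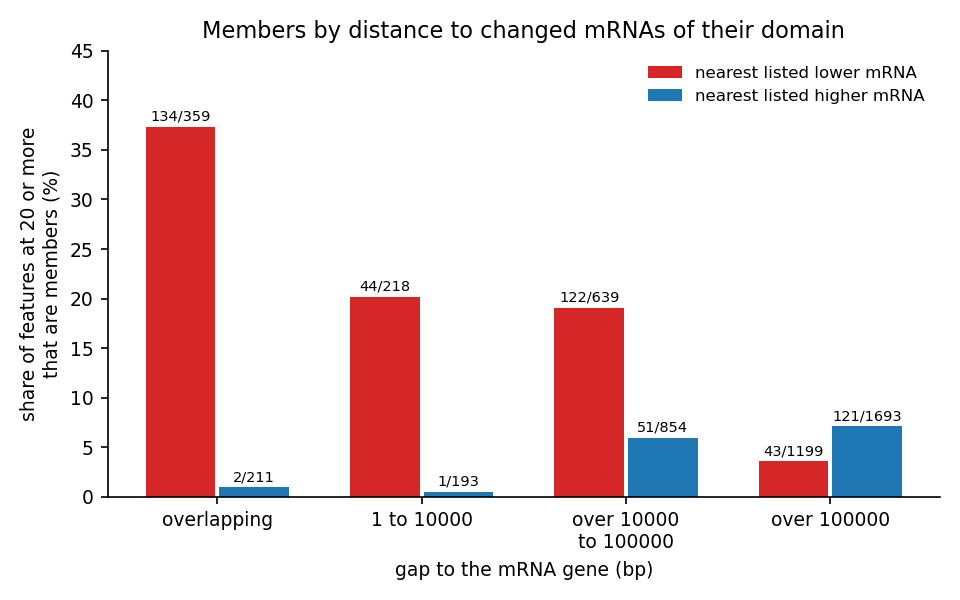
Bars give the percent of features with a wild-type mean of at least 20 that are members, by the gap in bp to the nearest listed lower (red) or higher (blue) mRNA gene of the domain; the counts of members and of features stand above each bar. The share drops from 37.3% to 3.59% with distance from a lower mRNA and is 0.948%, 0.518%, 5.97% and 7.15% in the same classes for a higher one, the lowest pair resting on 2 and 1 members.

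Side and strand relative to the lower mRNA differed as well. Of the 343 members, 132 overlapped the gene on the opposite strand and 2 on the same strand. Upstream of the gene lay 82 on the opposite and 58 on the same strand, and downstream 22 on the opposite and 47 on the same strand. Members made up 13.3% of the 616 features at 20 or more upstream on the opposite strand and 5.60% of the 393 downstream on the opposite strand. On the same strand they were 58 of 577 upstream and 47 of 470 downstream.

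The 132 overlapping members on the opposite strand faced 90 genes, 28 of them with 2 or more members. Of the 132, 79 touched no exon and 12 had at least 50% of their length over exons. Besides Cmah and Zan with 6 each, 3 members each faced Gnb1, Epas1, Esrrb, Usp6nl and Cngb1. Summed, the 3 opposite Epas1, the gene of a hypoxia-inducible factor, were at 1.16% of wild-type in knockout, and the 3 opposite Usp6nl, which encodes a Rab GTPase-activating protein, at 0.897%. Those opposite Pfkfb2, which encodes a regulator of glycolysis, were 2 members at 0.887%.

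Rod genes were among those faced by members. Of 40 features at 20 or more that overlapped a gene of a list of 44 rod genes, 19 were members, among them features opposite or within Cnga1, Cngb1, Gnb1, Slc24a1, Esrrb, Nrl, Kcnj14 and Reep6. Over all 7978 features at 20 or more, 548 were members. Among the 359 that overlapped any listed lower mRNA, a nearer comparison, 134 or 37.3% were. The list was written with earlier results of these data known. In all, 20 of the 34 rod genes that the table lists as lower were in domains with a member. The same share over all listed lower mRNAs was not counted, so nothing particular to rod genes is read from the 20. In the list's members wild-type 1 was the highest wild-type library in 14 of 19.

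Opposite Gnb1, the gene of the transducin beta subunit, MSTRG.65738 (chr4:155493061-155494998, minus strand) touched no exon and had 769, 626, 499, 657 and 433 normalised counts in wild-type against 0 to 2.88 with a median of 1.02 in knockout. Its neighbour MSTRG.65741 had 389, 375, 225, 339 and 194 against 0 to 0.830 with a median of 0. Wild-type 1 was the highest library in both, and in neither did the groups overlap.

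The channel that closes in light is built of the products of Cnga1 and Cngb1. MSTRG.68455 opposite Cnga1 (chr5:72612161-72612279, plus strand) had 481, 312, 279, 288 and 276 in wild-type and 0 to 0.976 with a median of 0 in knockout, with 4 knockout libraries at 0. MSTRG.87812 opposite Cngb1 (chr8:95284173-95284491, plus strand) had 347, 187, 199.5, 258 and 175 against 1.52 to 6.72 with a median of 3.54. In both, wild-type 1 stood well above the other wild-type libraries, and no knockout library came near the wild-type range. MSTRG.87813 and MSTRG.87811, also opposite Cngb1, had 188 ± 38.5 and 20.8 ± 6.29 in wild-type and 4.06 ± 2.42 and 0.328 ± 0.509 in knockout. Opposite Slc24a1, the gene of the sodium-calcium-potassium exchanger of the rod outer segment, MSTRG.92026 had 425 ± 127 and 3.39 ± 1.27 with 98.9% of its length over exons, while MSTRG.92027 had 180.3 ± 39.9 and 4.83 ± 1.71 with 7.38% over exons.

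Of 21 features at 20 or more that overlapped a gene on a list of 20 photoreceptor transcription factors, 4 were members. Over all 7978 features at 20 or more, 548 were. Of the list's genes, 6 were listed as lower in any domain and 5 as higher. Of the 4 members, 1 lay opposite Nrl and 3 opposite Esrrb, which encodes an orphan nuclear receptor of rods. At Esrrb 5 features at 20 or more lay on the opposite strand. MSTRG.21447 (chr12:86506765-86507755, minus strand) had 506, 327, 215, 352 and 401 in wild-type and 0 to 4.04 with a median of 2.18 in knockout, and MSTRG.21449 had 98.4 ± 26.02 and 6.80 ± 2.90. MSTRG.79785 opposite Kcnj14, which encodes an inward rectifier potassium channel, had 126, 133, 68.7, 170.2 and 157 against 0 to 1.92 with a median of 0. In it wild-type 3 was the lowest library of its group, at 68.7, still far above the highest knockout value.

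Genes on the lists of other retinal cells were overlapped by 1 member in all. Members were 548 of all 7978 features at 20 or more, so 0 among so few features is near that share and nothing is read from it. Members were 0 of 7 features at 20 or more overlapping cone genes, 0 of 8 for bipolar genes, 0 of 3 for amacrine genes, 0 of 1 for ganglion cell genes, 0 of 2 for glial stress genes, 0 of 3 for pigment epithelium genes, 0 of 3 for vascular genes and 0 of 1 for lens genes. For Müller glia, microglia and erythrocyte genes no feature at 20 or more overlapped. Of 2 features overlapping horizontal cell genes 1 was a member, MSTRG.31990 opposite Ndrg1, with 24.0 ± 5.21 and 2.13 ± 1.44. None of the 17 cone genes listed as higher was in a domain with a member. The same share over all listed higher mRNAs was not counted.

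Of 15 features at 20 or more that overlapped known retinal long non-coding RNAs, the 3 at Vax2os were members. Vax2os lies beside Vax2, a homeobox gene of the ventral retina. MSTRG.74898 (chr6:83698281-83701902, plus strand), antisense to Vax2os, had 2810.1, 2050.4, 1939.8, 1994 and 1791 in wild-type and 3.91 to 7.47 with a median of 5.15 in knockout. MSTRG.74902, also antisense, had 273 ± 54.6 and 2.30 ± 2.80, and MSTRG.74899, on the strand of Vax2os, had 60.4 ± 13.5 and 3.22 ± 1.94. The other 12, at Otx2os1, Otx2, Meg3, Mir124-2hg and Sox2ot, were no members.

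Abundant members also lay in domains that list no lower mRNA. The 3 most abundant in domains with no changed mRNA were MSTRG.17940, MSTRG.54676 and MSTRG.86254, and the 3 in domains with only higher mRNAs were MSTRG.46182, MSTRG.51435 and MSTRG.84302. The last lies opposite Brsk2, which encodes a neuronal kinase (chr7:141954851-141961632, minus strand), and had 1539, 1113, 1305, 1149 and 1222 against 90.2 to 161 with a median of 120.1. It kept 9.91%, close to the edge of the rule.

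The libraries of a group were not alike in these features. Summed over the members, wild-type replicates 1 to 5 had 220121, 174498, 173584, 167283 and 167857 normalised counts, and knockout libraries 5440 to 8122. Wild-type 1 was highest in 323 of 548 members (58.9%) and in 44.3% of the other features at 20 or more. Its median ratio to the other wild-type libraries was 1.36 in members and 1.15 in the others. Without it 512 features met the rule, 505 of them among the 548, and the share in domains listing a lower mRNA was 63.1%. Knockout 1 was the highest knockout library in 155 members. The median coefficient of variation over the wild-type libraries was 26.9% in members and 24.0% in the others. The part of either library in the results was not tested.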

How the data were processed

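Retinal RNA depleted of polyadenylated transcripts was read as 50-bp stranded single-end reads, per the labels' protocols. The deposited table gives 1 signal column per library, which holds read counts divided by DESeq2 size factors, per the file headers. TopHat2 2.0.10 and Cufflinks 2.2.1 with Cuffdiff, and both mm9 and mm10, appear in the submitters' processing notes. Which program assembled or counted the features, and with what use of strand, is not stated there. The authors' deposited log2 fold changes, Wald score and p-values were left out.

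The 36180 lines hold 36097 features, 83 with 2 lines because they lie in 2 domains. All values were whole multiples of 1 read within a tolerance of 0.001, 100% of them. A value of 0 means that no read was counted, which does not show that the RNA was absent. The floor of 3 reads served only to count members at 3 reads or fewer. Positions count from 1. Placement is by GENCODE M21. limma 3.58.1 (R 4.3.3, trend and robust, two-sided) was fitted to log2(normalised count + 1) over all 11 libraries for features with a mean of at least 5, with Benjamini-Hochberg adjustment over all 21395, after the script was tested on simulated data. edgeR 4.0.16 (quasi-likelihood) and DESeq2 1.42.0 on the whole reads of 9 libraries were alternatives; wild-type 5 and knockout 2, where 1 read is worth 1.01 normalised counts, were left out of them. The p-values set the group difference against the spread between libraries, which may in part be technical. Members, gene lists and the rule for named features were chosen with earlier results of these data known. Named were the 15 most abundant members, the 2 leading members of the 6 largest groups, members at listed genes, the longest and shortest, those at each threshold, those near Nrl, those in domains without a lower mRNA, and the neighbours of the largest group; the pair partners, the gene sums and the promoter windows were added after their values were seen. Results at some loci are not reported here.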

Additional observations from a re-analysis of the deposited data

Results flagged for a closer look

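Each named member and the sum over all members was checked for a library far from the rest of its group (Dixon's ratio of the gap to the range, 95% level). Of 112 groups of libraries checked, 15 held such a library; chance flags about 1 in 20 groups, and members of 1 locus or library are not independent.

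Wild-type 1 stood high in 7. The sum over the members was 220121 normalised counts there, against 174498 in the next wild-type library. Single members with wild-type 1 far above the next library of its group, given as the first and second value, were MSTRG.71255 at 1352 against 1021, MSTRG.92026 at 645 against 416, MSTRG.68455 at 481 against 312, MSTRG.74898 at 2810.1 against 2050.4, MSTRG.74902 at 370.3 against 255 and MSTRG.12323 at 213 against 149. Knockout 1 stood high in MSTRG.86254 at 474 against 257, MSTRG.86255 at 375 against 199, MSTRG.71255 at 83.2 against 47.5 and MSTRG.36037 at 2.08 against 0, and low in MSTRG.7906 at 8.32 against 17.2. Knockout 6 was high in MSTRG.74902 at 7.81 against 2.28 and MSTRG.31990 at 4.88 against 2.28. Wild-type 2 was low in MSTRG.86254 at 3008 against 3667. In all of these the groups did not overlap, and several of the knockout values amount to a few reads.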

How the results depend on the processing

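All 548 members were lower in knockout in each limma fit that tested them, and in edgeR and DESeq2. With a filter at a mean of 20, 380 members were tested and all 380 were lower. That filter tested 8266 features and called 1628 lower and 1722 higher, against 2695 and 3327 otherwise. Over 1065 alternative values for the 51 named members, every log2 difference was below 0, from -10.26 to -1.84. The rule chose members by these libraries, so these signs and calls follow from it and show no stability. Replicate numbers are shared between groups but were not taken to pair the libraries, since not every pair's correlation was over 0.1: deviations of same-numbered libraries correlated at 0.294, 0.00135, 0.123, 0.0512 and 0.273, and 1 of the 5 wild-type libraries correlated best with its own number. The fit with a replicate block on these 10 libraries called 3217 features lower and 3715 higher, against 2521 and 3199 without the block, and left all 548 members lower.

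The choice of the rule sets the number of members, 548 as reported. It was 336 with knockout at most 5% of wild-type, 785 with at most 20%, 679 and 393 with a wild-type minimum of 10 and 40, and 512 to 563 without 1 library each. Median length went from 1000.5 bp to 848 bp and 1575 bp with those minimums, and the share in groups of 2 or more from 39.2% to 45.7% and 31.6%. That share was 18.8% with gaps of at most 1000 bp, 52.2% with 100000 bp and 56.0% with strand ignored. The share in domains listing a lower mRNA went from 62.8% to 68.2% with the 5% limit and to 60.6% with the 20% limit. It was 61.3% and 65.4% with the minimums of 10 and 40, and 62.5% to 63.8% without 1 library each. The share antisense to a coding gene stayed within 42.0% to 45.4% in all alternatives run. Depth limits the members at 3 reads or fewer in knockout: how far below their ratio lies was not detectable. Added after the data were seen were limma on the 9 libraries of the count tests (2542 lower, 3098 higher) and the fit without a block on 10 libraries.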
